A study of Mus musculus with 8 samples.

Results

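The contacts that the promoter of *Alb*, the serum albumin gene, made with its own gene body, with its upstream flank and with its proximal enhancer were taken from 4C-seq profiles of mouse liver. A contact is a DpnII restriction fragment that was listed with a read depth, and it was counted here when it overlapped the stretch from 10.9 kb upstream of the *Alb* transcription start site (TSS) to the annotated end of the gene. The viewpoint fragment itself, chr5:90888542-90889870 (mm9), was left out. In male liver 19 of the 57 contacts qualified and in female liver 21 of 67, and each of the 19 male contacts was also listed in female liver. By the position of their midpoints, the contacts were placed in the enhancer (more than 8 kb upstream of the TSS, 4 contacts in each sex), the promoter flank (6 contacts in each sex) or the gene body (9 in male and 11 in female liver).

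4C-seq was done on 8 livers of CD1 mice aged 8 weeks, 4 of each sex, with no treatment or altered gene named in the labels. Chromatin was fixed with formaldehyde, in nuclei for 1 liver of each sex and in cell suspensions for the other livers, cut with DpnII and ligated. A cut with Csp6I and another ligation gave circles, which were amplified from the promoter, with 2 reactions pooled for replicates 1 and 2 of each sex and 8 for replicates 3 and 4. The values of the 4 livers of a sex had been merged, keeping fragments seen in each of them, so each contact had 1 RPM (read depth per restriction fragment, scaled to library size) per sex. No value had a replicate error, no difference between the sexes could be tested, and the depth behind each RPM was not recoverable. Expression was not measured in these samples, so the labelled tissue was not checked against marker genes.

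Albumin is the most abundant plasma protein, and its gene is among the most highly transcribed genes of the hepatocyte. Its promoter is bound by liver-enriched and general factors, among them HNF1, C/EBP, NF1 and NF-Y, and a separate enhancer upstream of the gene acts with it in liver. In 4C-seq, DNA that lies close to the viewpoint in the nucleus is ligated to it more often, so the depth of a fragment reads out its contact frequency, together with how well the fragment can be cut, ligated, amplified and mapped.

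The sequences that define the viewpoint and the strongest contact of each segment are given here because the profile is read from the former and peaks in the latter. They are on the forward strand of mm9 unless stated. The genomic part of the reading primer, chr5:90889854-90889873, ends in the DpnII site (GATC, in capitals) at which the viewpoint fragment was ligated.
Reading primer, genomic part: ggtaagtatggttaatGATC
The promoter is the RefSeq sequence of 250 bases before the RefSeq start of *Alb* (GRCm38.p6, chr5:90460620-90460869), which matched mm9 at chr5:90889646-90889895. Capitals mark GATC and the matches, on either strand, to GTTAATNAT (HNF1) and TTGCNNAA (C/EBP). The only TTGCNNAA match, on the reverse strand from chr5:90889802, overlaps a forward match to TTGGC (NF1) from chr5:90889803. The same capitals thus hold both motifs, and the letters do not tell which factor, if either, binds there.
Alb promoter: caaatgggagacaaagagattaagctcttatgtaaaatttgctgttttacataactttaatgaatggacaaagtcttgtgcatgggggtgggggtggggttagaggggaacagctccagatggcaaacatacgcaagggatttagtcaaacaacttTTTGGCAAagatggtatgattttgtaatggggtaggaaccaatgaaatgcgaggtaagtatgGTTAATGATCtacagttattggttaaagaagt
For each segment, the middle 300 bases of the contact with the highest RPM summed over both sexes are shown, from chr5:90879489-90879788 (enhancer), chr5:90886685-90886984 (promoter flank) and chr5:90893657-90893956 (gene body). Capitals mark matches on either strand to TTGCNNAA (C/EBP), TNTTTAC (FOXA) and CAAAGNNCA (HNF4), where N is any base. TNTTTAC is a loose pattern for FOXA, and the marked matches have T (promoter flank) and C (gene body) as second base. Other forms of a FOXA site were not searched and are not marked, such as TGTTTAT in the enhancer and promoter flank windows. Unmarked letters thus do not show that a FOXA site is missing.
Enhancer contact: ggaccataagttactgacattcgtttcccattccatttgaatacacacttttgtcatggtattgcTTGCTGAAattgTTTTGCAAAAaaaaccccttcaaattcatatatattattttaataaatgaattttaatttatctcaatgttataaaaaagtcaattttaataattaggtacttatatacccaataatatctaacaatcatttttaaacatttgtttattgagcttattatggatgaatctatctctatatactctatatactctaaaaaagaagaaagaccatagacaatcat
Promoter flank contact: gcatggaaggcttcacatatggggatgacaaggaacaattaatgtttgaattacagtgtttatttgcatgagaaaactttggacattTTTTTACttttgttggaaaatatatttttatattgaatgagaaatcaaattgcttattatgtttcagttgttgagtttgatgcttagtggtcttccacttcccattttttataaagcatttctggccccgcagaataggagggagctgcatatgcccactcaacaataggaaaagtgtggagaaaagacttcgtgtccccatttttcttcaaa
Gene body contact: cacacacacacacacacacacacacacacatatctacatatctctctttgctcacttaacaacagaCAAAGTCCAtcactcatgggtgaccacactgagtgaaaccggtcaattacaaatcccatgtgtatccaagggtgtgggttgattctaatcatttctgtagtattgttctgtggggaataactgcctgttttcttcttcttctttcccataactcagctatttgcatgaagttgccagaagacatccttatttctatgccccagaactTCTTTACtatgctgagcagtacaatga

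The DpnII site of the viewpoint, chr5:90889870-90889873, ended 42 bases before the TSS and overlapped the HNF1-type match in the promoter, chr5:90889864-90889872. That match is rare: 0.878% of the 590836 windows of 250 bases on chromosome 5 held GTTAATNAT, whereas 11.1% held TTGCNNAA and 34.0% held CCAAT (NF-Y), which the promoter held 2 times. The enhancer window held 3 matches to TTGCNNAA, of which 2 overlap each other on opposite strands, and 13.2% of the 492360 windows of 300 bases on chromosome 5 held at least 1. The promoter flank window held 1 match to TNTTTAC, as did 19.1% of windows. The gene body window held 1 match to TNTTTAC and 1 to CAAAGNNCA, the latter present in 7.23% of windows. A match is a run of letters and does not show that the factor was bound.

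The *Alb* region held a larger share of listed fragments than the profile as a whole. The contacts of the series spanned 298 DpnII fragments besides the viewpoint, and the listed share was 19.1% for males and 22.5% for females. Among the 60 fragments of the *Alb* region, the share was 31.7% for males (95% Wilson interval 21.3 to 44.2%) and 35.0% for females (24.2 to 47.6%). The enhancer had 4 of 10 fragments listed in each sex (40.0%), the promoter flank 6 of 17 (35.3%), and the gene body 9 of 33 in male (27.3%) and 11 of 33 in female liver (33.3%). Beyond the gene, on its downstream side, 6 of 101 fragments were listed in each sex (5.94%), and upstream of the region 23.4% of 137 fragments in male and 29.2% in female liver. These intervals treat fragments as independent and cover counting error only, and neighbouring fragments share the same profile, so no test was made of the shares.

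The region carried 41.7% of the male and 41.4% of the female RPM summed over all contacts, from 33.3% and 31.3% of the contacts. The gene body took the largest part of the 3 segments in both sexes, with 19.4% in male and 19.0% in female liver. The promoter flank held 14.7% and 13.1%, and the enhancer 7.61% and 9.26%, in the same order. The gene body was also the largest segment, with 33 of the 60 fragments. Its median RPM per contact was 918 in male and 779 in female liver. That median was 1139 and 1101 in the promoter flank, and 856 and 1335 in the enhancer. Over the whole region, the median RPM of a contact was 939 in male and 976 in female liver, against 624 and 682 for contacts outside the region. In each sex, 4 of the 5 contacts with the highest RPM of the whole list lay in the region.

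**Figure D1:**
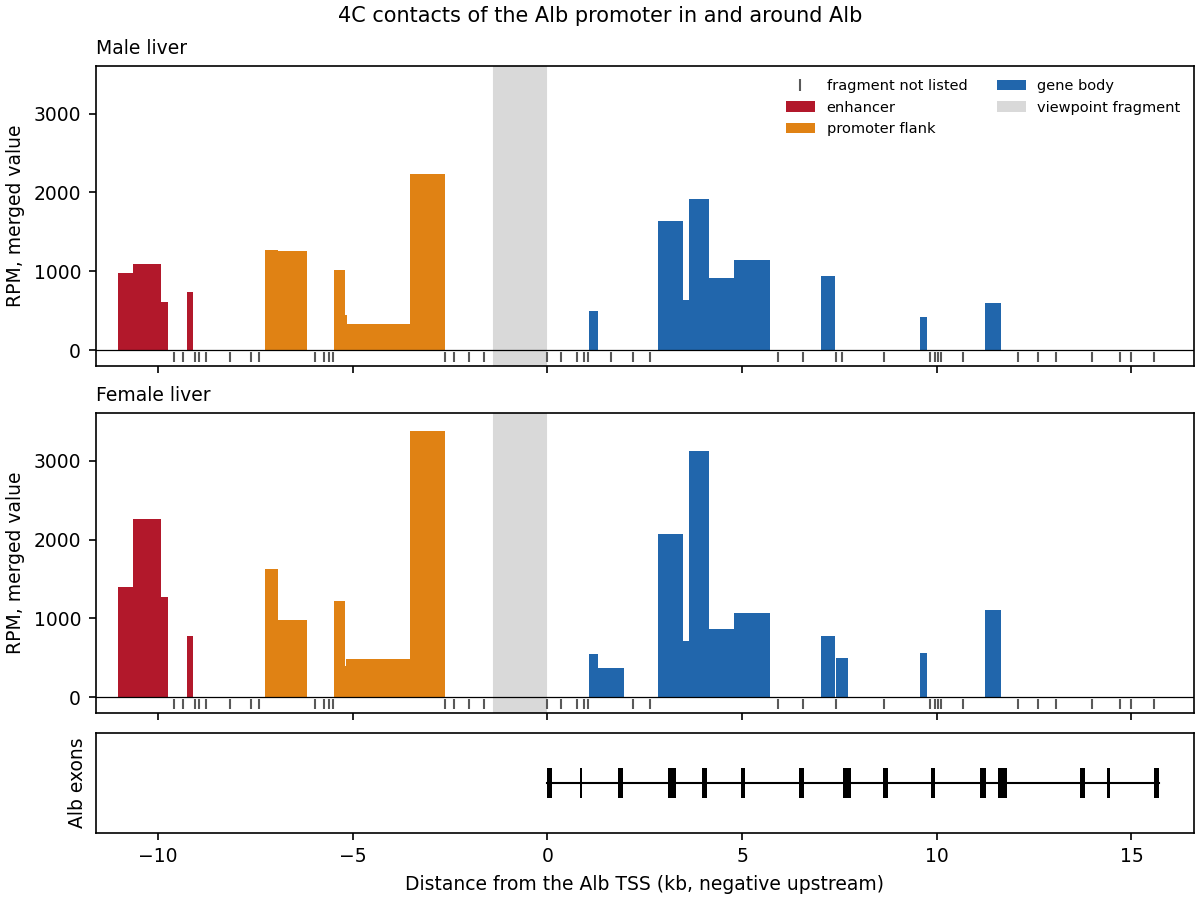
RPM of each listed fragment (bar width is fragment length) against distance from the *Alb* TSS in kb, with male liver above, female liver in the middle and the exons of *Alb* below; ticks under the axis mark fragments that were not listed, and bars are single merged values without error bars. The tallest bar on each side of the viewpoint is the same fragment in both sexes, 3.08 kb upstream and 3.89 kb downstream of the TSS.

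The 2 strongest contacts of the entire list lay on opposite sides of the TSS and were the same fragments, in the same order, in both sexes. The strongest was chr5:90886386-90887283, an intergenic fragment of 898 bp in the promoter flank with its midpoint 3.08 kb upstream of the TSS, at 2237 RPM in male and 3376 RPM in female liver. The next was chr5:90893544-90894068, which runs from intron 4 through exon 5 into intron 5 with its midpoint 3.89 kb inside the gene, at 1921 and 3124 RPM. Both had a −log10 p of exactly 100 in both sexes, which was the listed p-value of 3 contacts in male and 2 in female liver. The deposited value was not always capped there, since fragments of lower RPM had values above it, up to 187 in male and 231 in female liver.

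No fragment next to the viewpoint was listed. Upstream, 4 fragments of 16 to 510 bp covered a gap of 1258 bp between the viewpoint fragment and the strongest contact. Downstream, 5 fragments of 27 to 691 bp covered 1106 bp, and they held exon 1, intron 1, exon 2 and the start of intron 2. The fragment that directly adjoins the viewpoint on the gene side, chr5:90889873-90889923, is 51 bp long and holds the TSS. None of the 5 downstream fragments had a Csp6I site, while 1 of the 4 upstream fragments had both a Csp6I site and a unique end. A unique end is one where at least 1 stretch of 32 bases within 105 bases of the end occurs once in the genome. The part of these features in the gaps was not tested.

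In the gene body, the contacts gathered between 1 and 6 kb downstream of the TSS. That stretch had 6 of its 11 fragments listed in male (54.5%) and 7 in female liver (63.6%), against 3 and 4 of the 19 fragments beyond 6 kb (15.8% and 21.1%). The densest stretch was a run of 5 adjoining fragments, chr5:90892746-90895636, from 2.83 to 5.72 kb inside the gene, which reaches from intron 3 to intron 6 and holds exons 4, 5 and 6. Its summed RPM was 6245 in male and 7849 in female liver, the largest of any unbroken run in the region. Depth was uneven along the run.

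The fragment that opens the run and holds exon 4, chr5:90892746-90893397 (652 bp), had 1635 RPM in male and 2072 RPM in female liver. It had the highest listed −log10 p of the gene body in both sexes, at 187 and 138. The exon 5 contact had the higher RPM but was listed at exactly 100, and what that value stands for was not settled here. Its neighbour in intron 4, chr5:90893400-90893541, is only 142 bp long, has no Csp6I site, and fell between the high values on either side at 633 and 712 RPM. After the strongest gene body contact, which holds exon 5, came an intron 5 fragment of 641 bp, chr5:90894071-90894711, at 918 and 872 RPM. The run closed with chr5:90894714-90895636 (923 bp), which holds exon 6, at 1138 and 1069 RPM. Male values of the last 2 fragments were above the female values, although the female value was the higher in 6 of the 9 gene body contacts found in both sexes.

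Outside that run no gene body contact reached the depth of the exon 4 and exon 5 fragments. The contact nearest the TSS, chr5:90890977-90891213 in intron 2, lay 1.18 kb inside the gene at 495 RPM in male and 547 RPM in female liver. An intron 7 fragment, chr5:90896942-90897306, had 939 and 779 RPM, and an intron 9 fragment, chr5:90899476-90899652, had 422 and 567 RPM, the lowest male value of the gene body. The last contact toward the 3′ end, chr5:90901143-90901566, overlaps exons 11 and 12 with its midpoint 11.44 kb inside the gene. It had 594 RPM in male and 1107 RPM in female liver, a female value 1.87-fold the male value, and it was the third strongest contact of the gene body in female but not in male liver.

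From that contact to the end of the gene, 4063 bp holding exons 13, 14 and 15 had no listed contact in either sex. That stretch has 7 fragments, of which 3 have a Csp6I site and a unique end. The next contact downstream lay past the gene end, chr5:90906034-90906789, at 384 RPM in male and 353 RPM in female liver. Among the unlisted gene body fragments were also some of the longest, such as chr5:90897639-90899473, which is 1835 bp long, holds 5 Csp6I sites and spans exon 9. Another was chr5:90900062-90901140, of 1079 bp with 4 Csp6I sites.

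Exons and introns were both represented among the contacts. Listed fragments held 27.2% (male) and 40.2% (female) of the 2022 exonic bases of the gene body, against 25.5% and 31.5% of all its bases. Exons made up 13.5% of the listed bases in male and 16.1% in female liver, against 12.6% of the bases of all gene body fragments. Of the gene body contacts, 4 of 9 in male and 6 of 11 in female liver overlapped an exon, as did 17 of all 33 gene body fragments.

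Both contacts that were listed in female liver alone lay in the gene body and were weak. The first, chr5:90891216-90891881, holds exon 3 and had 369 RPM, the lowest female value in the region, with no p-value listed. The other, chr5:90897328-90897636, holds the 5′ part of exon 8 and had 493 RPM with a −log10 p of 8.34. A fragment is listed in a sex only if it was seen in each of its 4 livers, and an unlisted fragment has no depth in the values used here, so absence of these contacts from the male list gives no measure of how much lower the male depth was.

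The promoter flank had the widest range of male values. Besides the strongest contact it held the weakest male contact of the region, chr5:90884742-90886383, the longest listed fragment (1642 bp), at 333 RPM in male and 487 RPM in female liver. These fragments adjoin each other. Next to the weak one lay the shortest, chr5:90884720-90884739, which is 20 bp long with no Csp6I site and no unique end, and which was still listed at 453 and 403 RPM. Its values are given as listed.

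The other 3 flank contacts had more even values. The intergenic fragments chr5:90882661-90882993 and chr5:90882996-90883737 adjoin each other about 7 kb upstream of the TSS. The former had 1277 RPM in male and 1632 RPM in female liver, and the latter 1261 and 976 RPM, so their order of sexes was opposite. At 5.34 kb upstream, chr5:90884426-90884717 had 1018 and 1226 RPM.

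The enhancer contacts formed a run of 3 adjoining fragments between −11.02 and −9.73 kb relative to the TSS, with 1 more fragment nearer the gene. The run, chr5:90878893-90880181, summed to 2678 RPM in male and 4927 RPM in female liver. Its outermost fragment, chr5:90878893-90879279, had 976 and 1403 RPM. The middle fragment, chr5:90879282-90879994, was the strongest of the enhancer and ranked 9 of 57 in male but 3 of 67 in female liver. The inner fragment, chr5:90879997-90880181, had 606 RPM in male and 1266 RPM in female liver, which is 2.09-fold, the largest ratio between the sexes in the region. The separate fragment, chr5:90880656-90880816, had nearly equal values of 735 and 783 RPM.

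Contacts were also listed upstream of the region. Beyond 1 unlisted fragment next to the enhancer run, chr5:90878544-90878723, 11.28 kb upstream of the TSS, had 794 RPM in male and 1108 RPM in female liver, within the range of the enhancer contacts. The listed enhancer fragments held 5 matches to the C/EBP motif TTGCNNAA in 1.45 kb (3.46 per kb). The listed fragments held 0.255 per kb in the promoter flank and 0.198 per kb in the gene body, and chromosome 5 as a whole 0.488 per kb. All 5 matches lay in 2 of the 4 enhancer fragments, and overlapping matches were counted separately. Over the 3 segments together, listed fragments held 0.671 per kb and unlisted ones 0.918 per kb. In the region as a whole the motif was thus no denser in listed fragments. The unlisted enhancer fragments were not counted by themselves. Matches to TNTTTAC were also no denser in the 21 listed fragments (0.671 per kb) than in the 39 unlisted ones (1.05 per kb).

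At equal distance from the viewpoint, the gene body and the upstream side were alike near the promoter and parted beyond 10 kb. Up to 5 kb from the viewpoint midpoint, 5 of 12 gene body fragments in male and 6 of 12 in female liver were listed, and 3 of 7 upstream in each sex. Between 5 and 10 kb, 3 and 4 of 8 gene body fragments were listed against 5 of 17 upstream in each sex. Between 10 and 16 kb, 1 of 13 gene body fragments was listed in each sex (7.69%), against 7 of 12 upstream in male (58.3%) and 8 of 12 in female liver (66.7%). That upstream stretch holds the outermost and middle fragments of the enhancer run and fragments just beyond the region, while the inner fragment of the run lies in the 5 to 10 kb stretch. Over all distances from 205 bp to 15.9 kb, the listed share was 41.7% (male) and 44.4% (female) upstream, against 27.3% and 33.3% in the gene body. The upstream side also held more of the RPM summed over all contacts, with 30.2% and 32.4% against 19.4% and 19.0%. The median RPM of the listed fragments was 918 in the gene body and 794 upstream in male liver, and 779 and 1148 in female liver. By this median alone, the order of the sides differed between the sexes. None of these differences was tested.

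**Figure D2:**
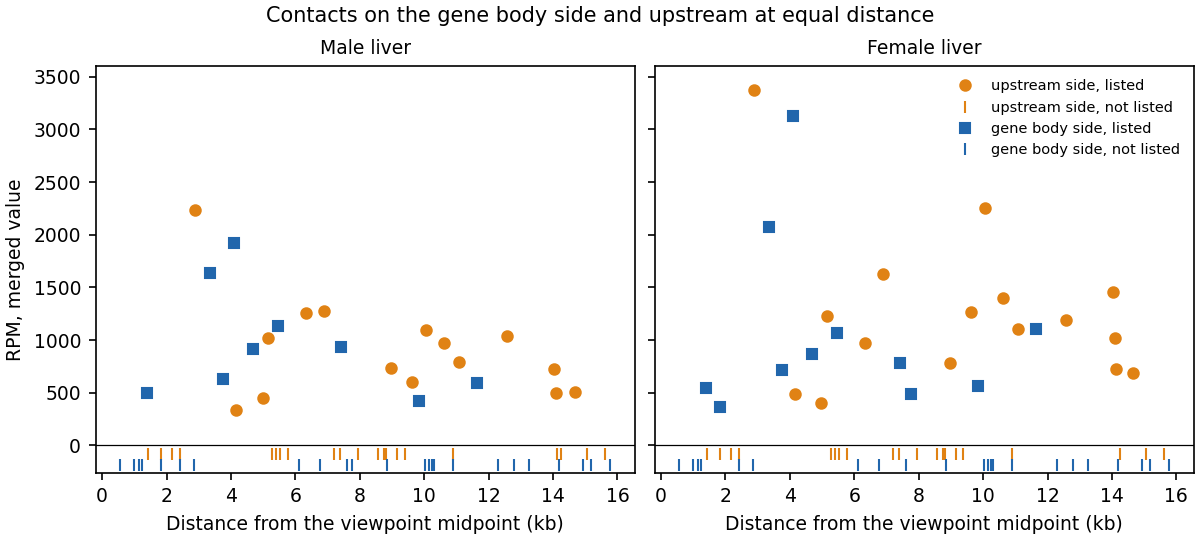
RPM of listed fragments against distance in kb from the midpoint of the listed viewpoint (chr5:90889550-90889870), in male and female liver. Squares are the gene body side and circles the upstream side, and ticks below 0 mark unlisted fragments of each side. Beyond 10 kb, 1 square stands against 7 circles in male and 8 in female liver.

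Among the listed contacts of the region, depth hardly followed distance. Unlisted fragments have no depth and are left out of the coefficients, so these do not show how listing changed with distance. In the gene body the listed share fell from 54.5% (male) and 63.6% (female) at 1 to 6 kb from the TSS to 15.8% and 21.1% beyond. Spearman's rho of RPM with distance from the viewpoint was −0.198 over the 19 male contacts and 0.173 over the 21 female contacts. With fragment length it was 0.474 and 0.305, and with GC content −0.319 and −0.292. The RPM of male and female liver had a rho of 0.828 over the 19 shared contacts, and of 0.783 over the 33 shared contacts outside the region. These fragments share 1 viewpoint and their libraries, so the coefficients are descriptions over fragments, and no p is given.

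The gene body was further divided by the super-enhancer of the study's own list, a cluster of active enhancers. The super-enhancer covers the enhancer and promoter flank segments, the 5′ part of the gene, and fragments upstream of the region. Inside it, 7 of 19 gene body fragments were listed in male (36.8%) and 9 of 19 in female liver (47.4%), and beyond it 2 of 14 in each sex (14.3%). Position inside the super-enhancer and nearness to the TSS cannot be told apart within the gene.

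Listing went with the presence of a Csp6I site and a unique end. Csp6I shortens the ligated fragments before the circles form. Of the 28 fragments in the region that had both features, 14 were listed in male (50%) and 16 in female liver (57.1%), against 5 of the 32 fragments without (15.6%) in each sex. The contrast was present in the promoter flank, with 5 of 7 listed against 1 of 10, and in the gene body, with 7 of 15 in male and 9 of 15 in female liver against 2 of 18. In the enhancer, with few fragments, 2 of 6 were listed against 2 of 4. Listed fragments were also longer, with a median of 387 bp against 263 bp for those listed in neither sex, and their median GC content was 38.7% against 39.3%. Only 1 of the 11 fragments under 100 bp was listed. The part of these features in the differences between segments was not tested.

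**Figure D3:**
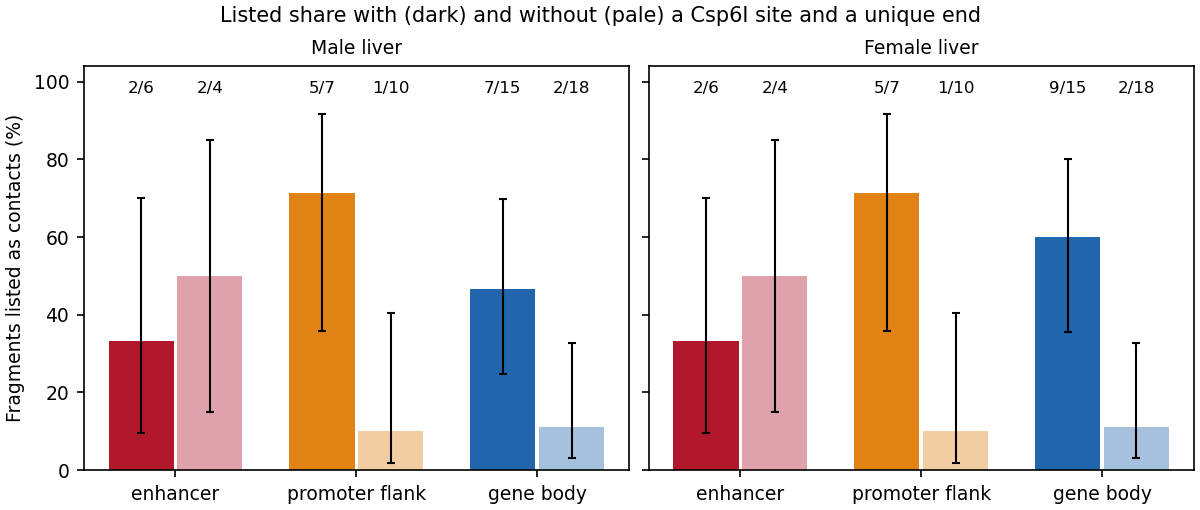
Percent of fragments listed as contacts in each segment, where dark bars stand for those holding both a Csp6I site and a unique end and pale bars for the rest, in male and female liver; lines are 95% Wilson intervals, which cover counting error only, and the counts printed over each bar are listed fragments out of all fragments. The dark bar is the higher one in the promoter flank and the gene body but not in the enhancer.

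As deposited, most contacts of the region had a higher RPM in female liver. Of the 19 contacts in both sexes, 14 were lower and 5 higher in male than in female liver, with a median log2 ratio (male over female) of −0.34 and a range of −1.06 to 0.37. The median was −0.78 in the enhancer, −0.31 in the promoter flank and −0.17 in the gene body, and −0.26 over all 52 shared contacts. Outside the region the median was −0.19 over 33 shared contacts. A general offset between the 2 lists and a difference between the sexes cannot be told apart here. The sum over the shared contacts, those of the region included, was 43128 RPM in male and 54056 RPM in female liver. Scaled to that sum, the median was −0.46 in the enhancer, 0.01 in the promoter flank and 0.16 in the gene body. The direction of the flank and of the gene body thus depended on the scaling, whereas the median of the enhancer was below 0 in either case. That enhancer median rested on 4 contacts, of which 1 was above 0 when scaled, at 0.23. Low ratios were not confined to the enhancer. Outside the region, 23 of the 33 shared contacts were lower and 10 higher in male liver as deposited. The fragment chr5:90875600-90875617, 14.31 kb upstream of the TSS, had a ratio of −1.02. Its neighbour chr5:90875620-90875742 had 729 RPM in male and 1455 RPM in female liver. Contacts between them and the enhancer had −0.19 and −0.48.

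**Figure D4:**
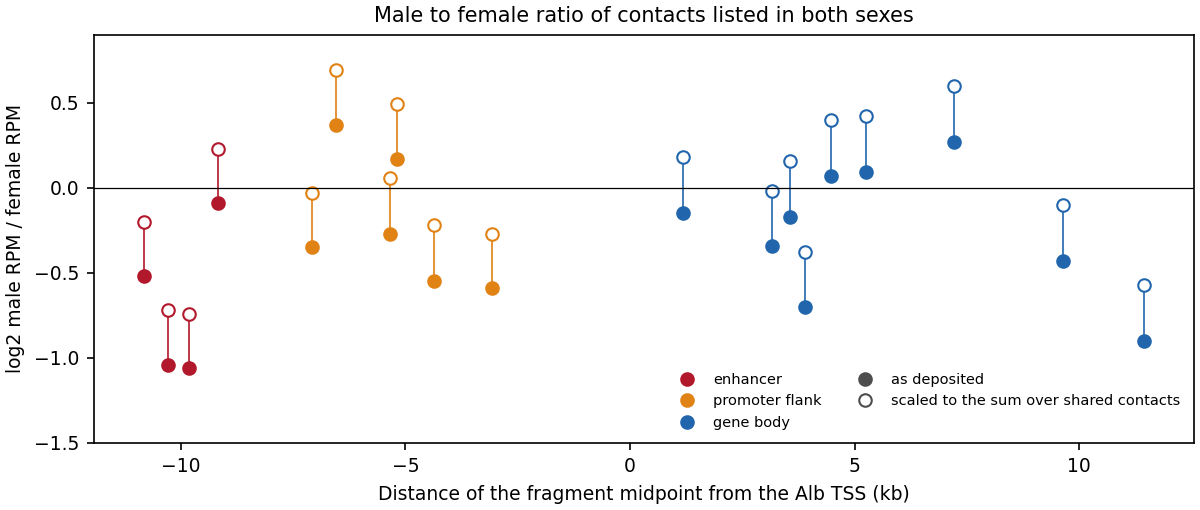
Log2 of male over female RPM for the 19 contacts listed in both sexes, against the distance of the fragment midpoint from the *Alb* TSS in kb, as deposited (filled) and scaled to the sum over all shared contacts (open); points are ratios of single merged values without error bars. The 2 lowest points of either kind are the middle and inner fragments of the enhancer run.

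Single contacts differed from their segment. In the enhancer, the middle and inner fragments had log2 ratios of −1.04 and −1.06, while the separate fragment had −0.09. In the gene body, the ratio of the exon 5 contact was −0.70 and that of the contact at exons 11 and 12 was −0.90, whereas the intron 7 contact had 0.27. The highest ratio of the region, 0.37, belonged to the flank fragment chr5:90882996-90883737. With 1 merged value per sex, whether any of these ratios exceeds the spread between livers was not measurable here.

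Over the region as a whole, the listed p-values put the sexes in another order than the RPM did. The median −log10 p of the region was 70.5 in male and 38.3 in female liver, although the female RPM was mostly the higher. The enhancer was mixed. Its median −log10 p was 68.8 in male and 66.7 in female liver. The median difference per contact, male minus female, was −25.1 there, the same direction as its RPM. Within a sex, RPM and −log10 p ranked the contacts in nearly the same order, with a rho of 0.926 over 19 male and 0.951 over 20 female contacts. Of the contacts with a p-value, 18 of 19 in male and 20 of 20 in female liver had a p-value of 1e-05 or less. The exception was the longest flank fragment, whose −log10 p was 3.19 in male and 6.39 in female liver. The scale was read as −log10, which the study does not state throughout, and these values would differ on another log scale.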

How the data were processed

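4C-seq reads began with the reading primer, which ends in the DpnII site of the *Alb* promoter. Per the methods, the authors removed the first 20 nt of each read, mapped to mm9 with bwa-mem allowing 2 mismatches, counted reads per restriction fragment with r3Cseq, and merged the 4 livers of each sex by intersection. The deposited values are RPM, and the −log10 of an interaction p-value, per contact. Versions of bwa and r3Cseq are not given in the sources used here. The labels give 20 min of crosslinking for male replicates 2 and 4 and female replicates 1 and 4, whereas the methods give 10 min.

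Contacts were matched to DpnII fragments cut from the reference chromosome 5, which has the same build and length (152537259 bp), and to GENCODE gene models. Segments, motifs and alternatives were chosen with earlier results of these data known. Named contacts were the highest and lowest of each segment, those in 1 sex, those without a p-value, those nearest the viewpoint and the last toward the 3′ end. The others are given for completeness. RPM values were whole multiples of no common step (at best 15.8% of male and 14.9% of female values within 0.02 of a step), so depth was not recovered, and neither a count test nor any other test was made. Digestion, placement in segments, rank correlation and the median log2 ratio were tested on made data with known answers. Python 3.11.15, NumPy 2.4.6, SciPy 1.17.1 and pandas 2.3.3 were used.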

Additional observations from a re-analysis of the deposited data

How the results depend on the processing

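The counts of contacts per segment changed little: under 36 alternatives over 6 counts, 24 equalled the reported count, and the rest differed by at most 2. Part of this equality was fixed in advance. An overlap of at least 1 bp is the rule already used, and moving the enhancer bound cannot change the gene body count. With fragments limited to those with a Csp6I site and a unique end, the listed share was 71.4% in the promoter flank in both sexes, and 46.7% in male and 60.0% in female liver in the gene body, also at equal distance, where the female upstream share was 61.1%. The part of the summed RPM in the region was 33.3% (male) and 31.3% (female) when contacts were counted in place of RPM, 40.3% and 29.4% with RPM per kb of fragment, and 39.5% and 39.1% for contacts wholly inside it. Median RPM per kb in the enhancer, promoter flank and gene body was 2899, 2988 and 2383 in male and 4245, 3980 and 2308 in female liver. With values scaled to the sum of shared contacts, the median log2 of male over female RPM was −0.02 in the region, −0.46 in the enhancer, 0.01 in the promoter flank and 0.16 in the gene body. Scaled to the median of all contacts it was −0.16, −0.60, −0.13 and 0.01. The median difference of −log10 p was 5.38, −25.1, 12 and 5.38, so by p the region, flank and gene body turned; the cause was not tested. On RPM per kb, rho with distance was −0.0719 in male and 0.114 in female liver, and rho with −log10 p was −0.0298 and 0.282, where the male value turned.

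No paired analysis was possible because each contact has 1 merged value per sex, and for the same reason the alternative of leaving out each liver in turn was not run. The number of livers and the unknown depth limit what a difference between the sexes shows. Fragments that were not listed have no value, so a share of listed fragments depends on the calling of contacts as well as on depth.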
